A study of Mus musculus with 36 samples.

Results

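The Sox transcription factors measured here are *Sox4*, *Sox5*, *Sox6*, *Sox8*, *Sox9*, *Sox11*, *Sox12* and *Sox13*. They are 8 of the 22977 genes that the 3 tables of normalized counts share, taken as the rows whose Ensembl identifier maps to one of these symbols. They were followed across doses of CHIR99021 (CHIR), and after removal of β-catenin or of its Tcf/Lef partners, in cultured mouse nephron progenitor cells (NPCs). CHIR inhibits the kinase GSK3β, which otherwise marks β-catenin for destruction, and so acts as canonical Wnt input. RNA-seq libraries of primary NPCs from embryonic kidneys, 36 in all, were compared.

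Wild-type NPCs were grown in nephron progenitor expansion medium with no (0 µM), low (1.25 µM) or high (5 µM) CHIR, with 3 libraries at each dose. NPCs of the genotype with conditional β-catenin alleles were given Cre mRNA (Cre-pos) or no Cre (Cre-neg), with 2 libraries of each in low and in high CHIR. NPCs of Cas9-eGFP mice received sgRNAs to *Ctnnb1*, the gene of β-catenin, or to GFP as the control, again with 2 libraries per group and dose. In the Tcf/Lef experiment, Cas9-eGFP NPCs received sgRNAs to *Tcf7*, *Tcf7l1*, *Tcf7l2* and *Lef1* together, or to GFP. It has 3 GFP sgRNA libraries at each dose, 3 Tcf/Lef sgRNA libraries in high CHIR and 2 in low CHIR. After transfection the cells had a period of removal in low CHIR, which was longer in the Tcf/Lef experiment than in the β-catenin experiments. They were then cultured in low or high CHIR and sorted by co-transfected mCherry. All controls of these experiments carry the conditional alleles or Cas9 as well. Such a transfected population can hold a mixture of edited and unedited alleles. Neither the strain of each library nor the promoter behind Cas9 is given in the labels, and nothing says which libraries came from separate litters, so p-values measure the spread between these libraries.

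SOX proteins bind the minor groove of DNA through an HMG box, a domain that bends the helix and that the Tcf/Lef factors carry in a related form. The family is divided into groups by this box. SoxC proteins (*Sox4*, *Sox11*, *Sox12*) are activators of immature cells in many embryonic tissues, SoxD proteins (*Sox5*, *Sox6*, *Sox13*) lack an activation domain and pair through a coiled coil, and SoxE proteins (*Sox8*, *Sox9*) are activators best known from cartilage, gonad and neural crest. In the kidney *Sox9* and *Sox8* act in the branching ureteric tips, and *Sox4* and *Sox11* are needed for normal nephron formation.

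The group structure can be read in the coding sequence. The stretch of 120 coding bases best kept among the members falls in the HMG box, and 48 of these bases are shown 5′ to 3′ for each gene, to show how near the members are to one another. They were read from GENCODE transcripts on GRCm38, and capitals mark bases that differ from *Sox11*.
Sox11: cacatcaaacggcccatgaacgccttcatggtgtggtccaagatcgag
Sox4: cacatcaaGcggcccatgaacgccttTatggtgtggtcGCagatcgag
Sox12: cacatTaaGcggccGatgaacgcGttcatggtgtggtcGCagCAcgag
Sox5: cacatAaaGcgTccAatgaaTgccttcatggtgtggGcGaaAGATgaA
Sox6: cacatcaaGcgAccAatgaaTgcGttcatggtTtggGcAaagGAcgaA
Sox13: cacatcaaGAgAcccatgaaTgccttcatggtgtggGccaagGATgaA
Sox8: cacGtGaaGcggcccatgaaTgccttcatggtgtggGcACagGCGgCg
Sox9: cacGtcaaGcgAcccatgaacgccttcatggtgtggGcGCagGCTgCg
Over the 120 bases, pairs within a group were 84.2% to 91.7% identical (7 pairs) and pairs from different groups 60.0% to 75.8% (21 pairs). *Sox4* was nearest to *Sox11*, at 91.7%, and *Sox6* the least like it, at 66.7%.

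Libraries held 13089780 to 76071568 reads on genes. Values are normalized counts (reads divided by 1 size factor per library), and the 3 tables were normalized separately, so tests stay within a table. A gene was called when its adjusted p (limma, Benjamini-Hochberg over all tested genes) was under 0.05 and its log2 fold change at least 0.5 in size. *Six2*, which marks self-renewing NPCs, had 2716.1 to 3072.0 counts in wild-type low CHIR and 60.5 to 79.6 in high CHIR. *Wnt4*, which marks induction, had 1315 and 1473 counts in wild-type high CHIR replicates 1 and 2 but 11108 in replicate 3, a library that also stood apart for several Sox genes, so the wild-type results that rest on it are also given without it. *Ctnnb1* itself had 1629.9 and 1270.1 counts with its sgRNAs against 2632 and 2701 with GFP sgRNA in high CHIR (log2 fold change −0.89, adjusted p = 0.0429). With Cre it had 2254 and 2583 against 2423 and 2207 counts in high CHIR (0.06, adjusted p = 0.917), where a sum over the whole gene does not isolate the deleted exons. *Lef1* had 254.7 to 512.9 counts with Tcf/Lef sgRNAs against 1144.0 to 2742.6 in high CHIR, and *Tcf7* 109.5 to 179.7 against 267.9 to 535.0, whereas *Tcf7l1* and *Tcf7l2* overlapped between those groups.

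All 8 Sox genes passed the filter on low values in all 3 tables, and no other Sox gene did. Of 12 further Sox genes, 5, 3 and 7 were listed in the wild-type, β-catenin and Tcf/Lef tables, and the highest value of any of them was 22.4 counts (*Sox17*). Per kilobase of exon, the order of mean levels in wild-type low CHIR was *Sox11* (1507.8 counts per kb), *Sox4* (872.9), *Sox9* (376.2), *Sox12* (178.9), *Sox13* (54.0), *Sox8* (7.19), *Sox5* (4.8) and *Sox6* (1.22). The SoxC genes together made up 71.0% to 99.3% of the summed per-kilobase level of the 8 genes over all libraries. *Sox11* alone made up 45.0% to 52.7% of that sum in wild-type low CHIR and 64.0% to 77.2% in high CHIR. In high CHIR its share reached 91.9% to 95.7% in Cre-neg cells, and was 73.3% to 79.6% in Cre-pos cells.

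Between low and high CHIR, 4 of the 8 genes were called in the controls of the Cre and Tcf/Lef experiments, and 3 in the GFP sgRNA control of the β-catenin experiment. *Sox11* and *Sox6* were higher and *Sox9* lower in high CHIR in all 3 controls, and *Sox12* was lower in both the Cre-neg and the Tcf/Lef controls. *Sox6* passed the filter on low values there through its high CHIR libraries, so its calls add no support to these counts. The share of all tested genes called in these comparisons was 8.05% for Cre-neg, 7.51% for GFP sgRNA in the β-catenin experiment and 14.9% for GFP sgRNA in the Tcf/Lef experiment. In wild-type NPCs only *Sox12* was called between high and low CHIR, where 10.4% of all genes were called. Without replicate 3 of wild-type high CHIR, 4 genes were called (*Sox11*, *Sox12*, *Sox5* and *Sox9*). The share of all genes called in that fit was not computed, and the library was left out with its Sox values known.

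**Figure D1:**
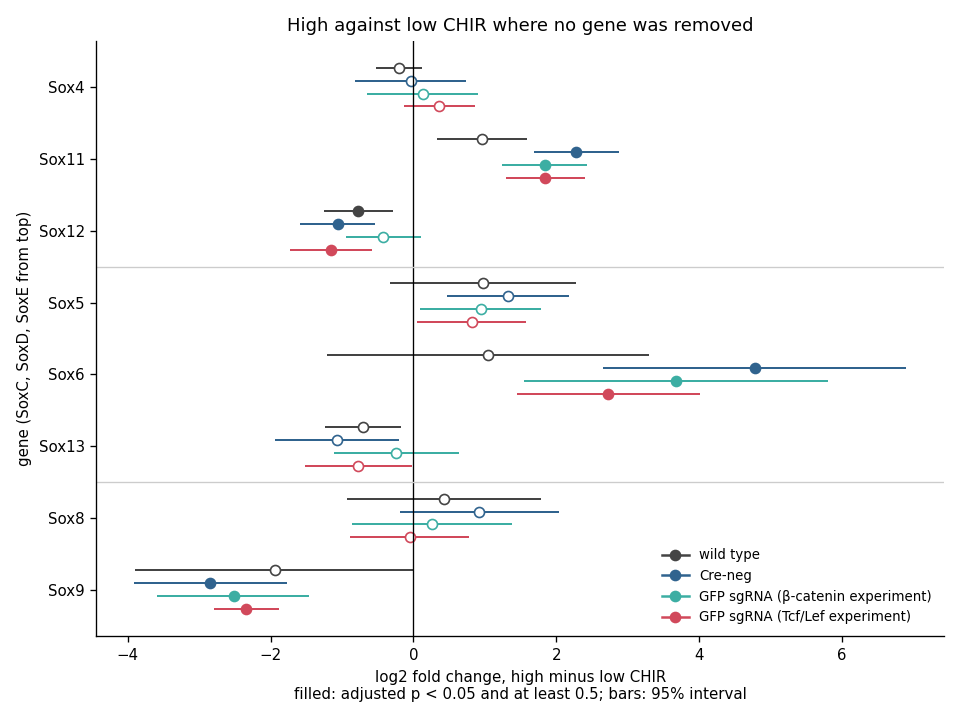
Log2 fold changes (high minus low CHIR, x axis) of the 8 Sox genes (y axis) in wild-type NPCs and in the 3 controls, with 95% intervals and filled points where a gene was called. *Sox11* lies to the right and *Sox9* to the left of zero in each, from 0.96 to 2.28 and from −2.85 to −1.94, and the *Sox4* intervals all include zero.

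*Sox11* (ENSMUSG00000063632, chr12:27334264-27342574, minus strand, GRCm38) is a single-exon SoxC gene whose protein is a strong activator. In wild-type NPCs its counts were 11191, 10440.3 and 7169 in no CHIR, 13715, 13065 and 10814 in low CHIR and 27190.3, 34701 and 15235 in high CHIR. All high CHIR libraries lay above all the others, replicate 3 nearest to them. The log2 fold change from low to high was 0.96 ± 0.28 (SE, n = 3 per group, adjusted p = 0.0536), and 1.30 (adjusted p = 0.00107) without replicate 3. From no to high CHIR *Sox11* rose by 1.37 ± 0.28 (adjusted p = 0.00585), or by 1.70 without replicate 3 (adjusted p = 9.04e-05). In that comparison 3 of the 8 genes and 23.4% of all genes were called. Without replicate 3 there were 5 Sox genes (*Sox5* and *Sox9* in addition to *Sox4*, *Sox11* and *Sox12*), with no share of all genes computed.

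In the Cre experiment *Sox11* had 18177 and 23190.0 counts in Cre-neg low CHIR and 115981 and 85357 in Cre-neg high CHIR, a rise of 2.28 ± 0.27 on the log2 scale (n = 2 per group, adjusted p = 0.000112). Cre-pos cells had 13122 and 23656 counts in low CHIR and 24648 and 29049 in high CHIR. Both Cre-pos high CHIR libraries lay far below both Cre-neg ones and just above the low CHIR libraries, and *Sox11* was lower in Cre-pos than in Cre-neg cells in high CHIR (−1.89 ± 0.27, adjusted p = 0.000528). It was 1 of 2 Sox genes called there, where 8.65% of all genes were called.

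The sgRNA experiment gave values of the same order. *Sox11* had 16946 and 17812 counts with GFP sgRNA in low CHIR and 62827 and 61696 in high CHIR (1.84 ± 0.27, adjusted p = 0.000734). With *Ctnnb1* sgRNAs it had 12235 and 12721 in low CHIR and 22396 and 16962 in high CHIR. The groups in high CHIR did not overlap, and *Sox11* was lower with *Ctnnb1* sgRNAs by −1.68 ± 0.27 (adjusted p = 0.00257), 1 of 2 Sox genes called where 5.09% of all genes were. Without replicate 2 of the *Ctnnb1* sgRNA libraries in high CHIR its adjusted p was 0.0588.

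With Tcf/Lef sgRNAs *Sox11* still responded to the dose. It had 9996, 13702 and 18072 counts with GFP sgRNA in low CHIR and 41382, 57312 and 49221 in high CHIR (1.85 ± 0.25, adjusted p = 0.000361). With Tcf/Lef sgRNAs the counts were 8586 and 11712 in low CHIR and 17443, 29462 and 28718 in high CHIR. These high CHIR libraries lay above their own low CHIR libraries and below every GFP sgRNA high CHIR library. The rise with dose was 1.29 ± 0.28 (adjusted p = 0.0327), one of 2 Sox calls where 2.54% of all genes were called, and it was lost in 4 of the 5 fits that left out a library. In high CHIR the difference from GFP sgRNA was −0.99 ± 0.25 (adjusted p = 0.0591), and the replicate numbers of this experiment deviate together, with an adjusted p of 0.000708 when the number was a block.

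**Figure D2:**
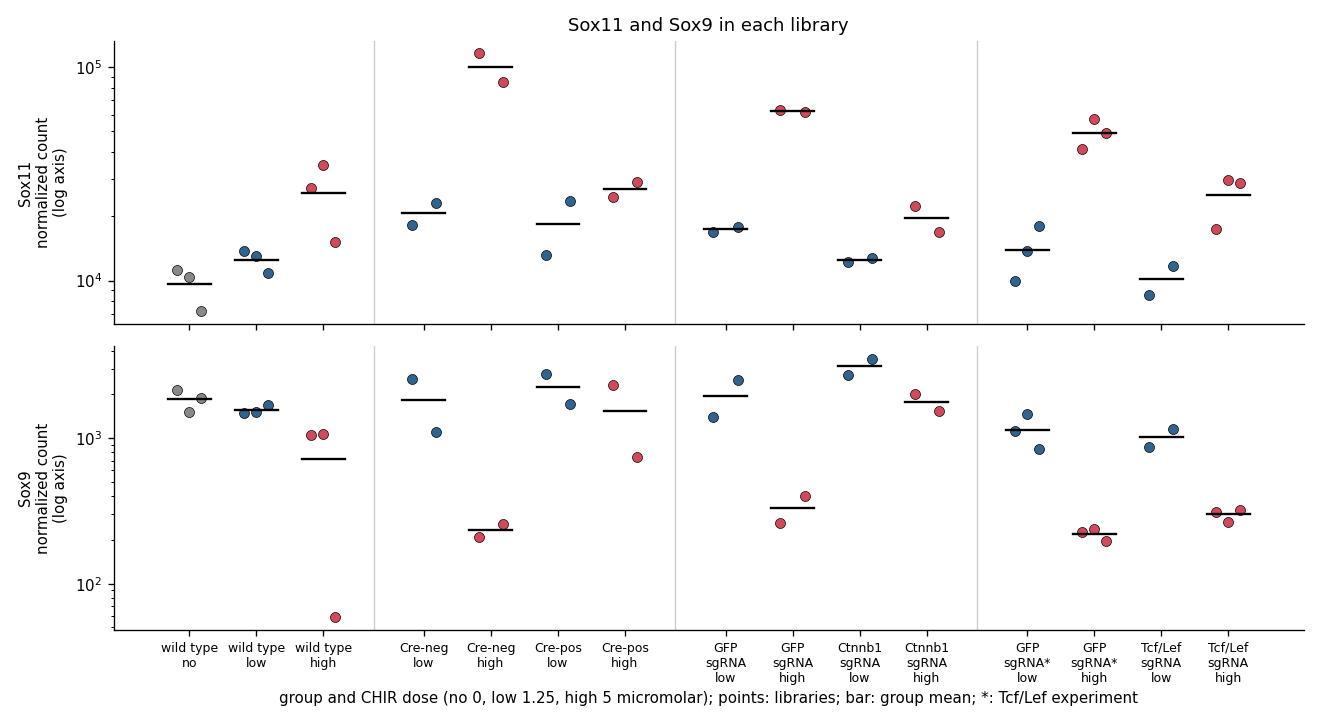
Normalized counts of *Sox11* (top) and *Sox9* (bottom) in every library on log axes, by group and CHIR dose, with bars at group means. *Sox11* is highest in the high CHIR libraries of the controls, up to 115981 counts, where *Sox9* is low, and the wild-type high CHIR replicate 3 holds the lowest *Sox9* value, 58.9.

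*Sox12* (ENSMUSG00000051817, chr2:152393611-152398063, minus strand) is the weakest activator of the SoxC group. It had 924, 1101 and 1023 counts in wild-type no CHIR, 737, 798 and 854 in low CHIR and 355, 433 and 659 in high CHIR. The 3 doses did not overlap, and *Sox12* fell by 0.77 ± 0.21 on the log2 scale from low to high (adjusted p = 0.0433). That call was kept in 1 of 6 fits that left out a library, the one without replicate 3 of high CHIR (−1.02, adjusted p = 0.00138), and its adjusted p reached 0.158 in the others. It was also lost with edgeR (adjusted p = 0.0591) and with only the libraries compared (0.0929), and kept with DESeq2 (0.0196).

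*Sox12* also fell with dose in Cre-neg cells, from 1069 and 718 to 407 and 430.5 counts (−1.06 ± 0.24, adjusted p = 0.0126), a call that was lost in 3 of 4 fits without a library. It fell with GFP sgRNA in the Tcf/Lef experiment from 1087, 806 and 500.5 to 413, 368 and 259 counts (−1.16 ± 0.26, adjusted p = 0.00977). With GFP sgRNA in the β-catenin experiment the counts were 578 and 830.1 against 491 and 546 (−0.42, adjusted p = 0.342). With β-catenin removed, *Sox12* in high CHIR had 516 and 659 counts in Cre-pos cells and 721 and 543 with *Ctnnb1* sgRNAs. Neither differed from its control by the test (0.48, adjusted p = 0.278, and 0.27, adjusted p = 0.575). Tcf/Lef sgRNAs gave 288, 295 and 325 counts in high CHIR, overlapping the GFP sgRNA libraries.

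*Sox4* (ENSMUSG00000076431, chr13:28948919-28953713, minus strand), the member nearest to *Sox11*, was the one gene called between no and low CHIR, where 4.97% of all genes were called. It had 2772, 2292 and 2162 counts in no CHIR, 4306, 3857 and 4394 in low CHIR and 3140.5, 3946 and 3869 in high CHIR. Every no CHIR library lay below every library with CHIR, and *Sox4* was lower in no than in low CHIR by −0.80 ± 0.14 (adjusted p = 0.0143), a call kept in 2 of 6 fits without a library. From no to high CHIR it rose by 0.60 ± 0.14 (adjusted p = 0.0115, or 0.0198 without replicate 3 of high CHIR), while low and high CHIR overlapped (−0.20, adjusted p = 0.426).

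In the 3 controls the low-to-high intervals of *Sox4* were −0.81 to 0.72 in Cre-neg cells, −0.64 to 0.89 with GFP sgRNA in the β-catenin experiment and −0.12 to 0.85 in the Tcf/Lef experiment. Removal of β-catenin in high CHIR gave −0.32 (adjusted p = 0.662) with Cre and −0.75 (adjusted p = 0.265, or 0.0226 when only the libraries compared were fitted) with sgRNAs. In the Tcf/Lef experiment *Sox4* had 3306, 6488 and 3570.2 counts with GFP sgRNA in high CHIR and 2494, 2492 and 2265 with Tcf/Lef sgRNAs. The groups did not overlap, and the difference was −0.81 ± 0.22 (adjusted p = 0.0858, or 0.0121 with the replicate number as a block).

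**Figure D3:**
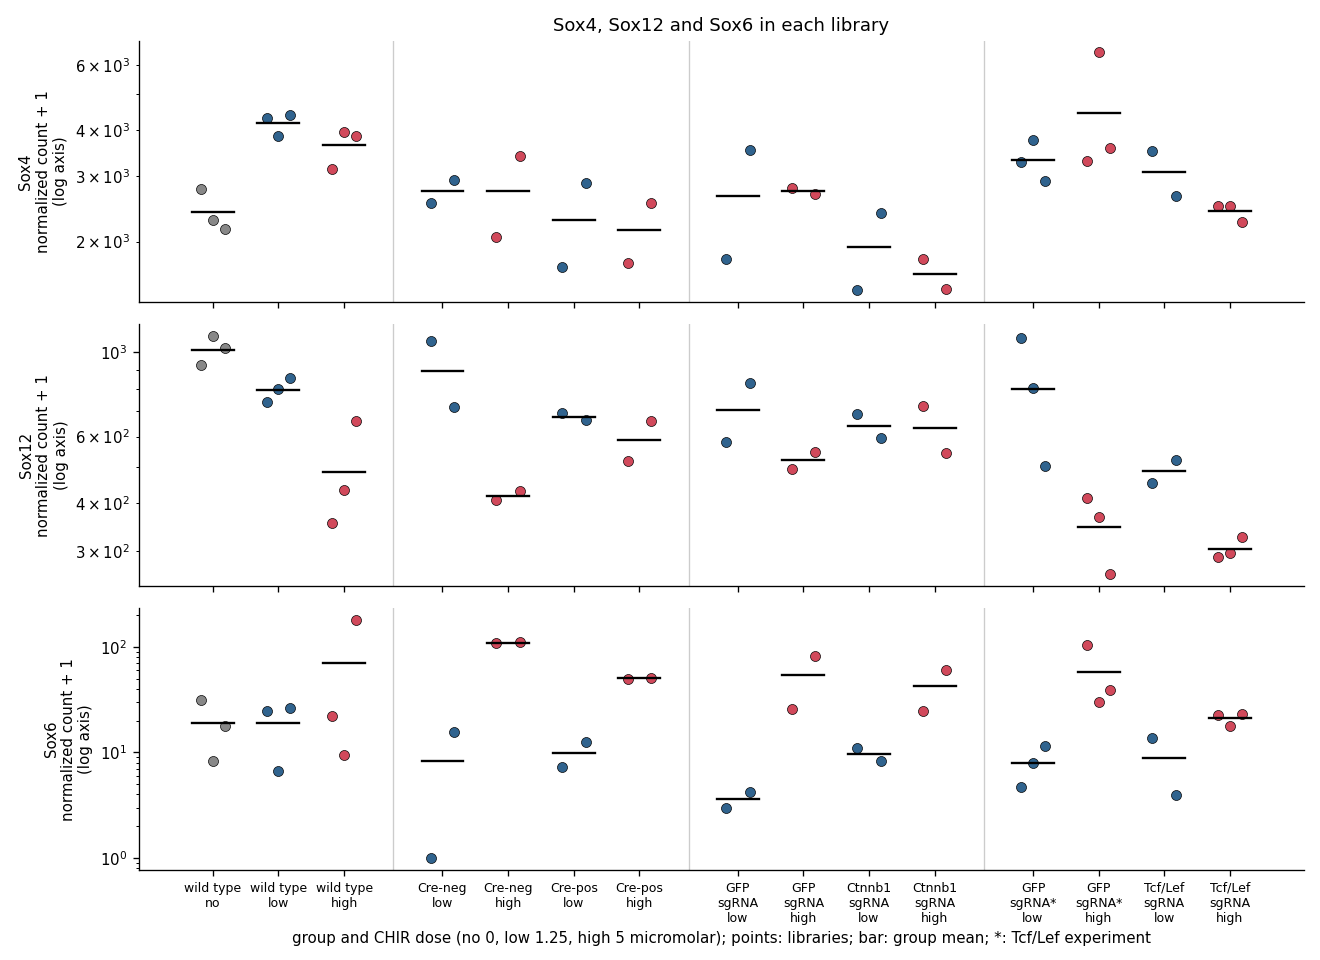
Normalized counts of *Sox4*, *Sox12* and *Sox6* in every library on log axes after adding 1, by group and CHIR dose, with bars at group means. *Sox12* sits lower and *Sox6* higher in high than in low CHIR in the controls, and within wild type *Sox4* is lowest without CHIR.

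*Sox9* (ENSMUSG00000000567, chr11:112782224-112787760, plus strand), the SoxE activator of cartilage genes, moved opposite to *Sox11*. It had 2140.4, 1519 and 1889 counts in wild-type no CHIR, 1485, 1504 and 1678 in low CHIR and 1043, 1061 and 58.9 in high CHIR. All high CHIR libraries lay below all others, but replicate 3 was far below the other two. The log2 fold change from low to high was −1.94 ± 0.88 (adjusted p = 0.202), and −0.56 (adjusted p = 0.0387) without replicate 3.

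*Sox9* fell with dose in all 3 controls of the removal experiments. Cre-neg cells had 2563 and 1105 counts in low CHIR and 211 and 258 in high CHIR (−2.85 ± 0.49, adjusted p = 0.00228). GFP sgRNA in the β-catenin experiment gave 1399.9 and 2494 against 262 and 400.1 (−2.52 ± 0.49, adjusted p = 0.00605, lost in 2 of 4 fits without a library), and in the Tcf/Lef experiment 1113, 1469.5 and 848 against 226, 239 and 197 (−2.34 ± 0.20, adjusted p = 1.69e-05). In no control did the doses overlap.

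Removal of β-catenin left *Sox9* high in high CHIR. Cre-pos cells had 2742 and 1726 counts in low CHIR and 2317 and 746 in high CHIR, and in high CHIR *Sox9* was higher than in Cre-neg cells by 2.49 ± 0.49 (adjusted p = 0.00563, or 0.0607 without replicate 1 of Cre-pos high CHIR). *Ctnnb1* sgRNAs gave 2736 and 3486 counts in low CHIR and 1998 and 1546 in high CHIR, higher than GFP sgRNA in high CHIR by 2.44 ± 0.49 (adjusted p = 0.0116), a call kept in 1 of 4 fits without a library. With the replicate number as a block in limma, the adjusted p in high CHIR was 0.00014 for Cre and 0.00037 for *Ctnnb1* sgRNAs. Tcf/Lef sgRNAs gave 874 and 1162 counts in low CHIR and 311, 266 and 323 in high CHIR. The log2 fold change with dose was −1.75 ± 0.23 (adjusted p = 0.00179), and in high CHIR they lay just above the GFP sgRNA libraries without overlap (0.44 ± 0.20, adjusted p = 0.349).

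**Figure D4:**
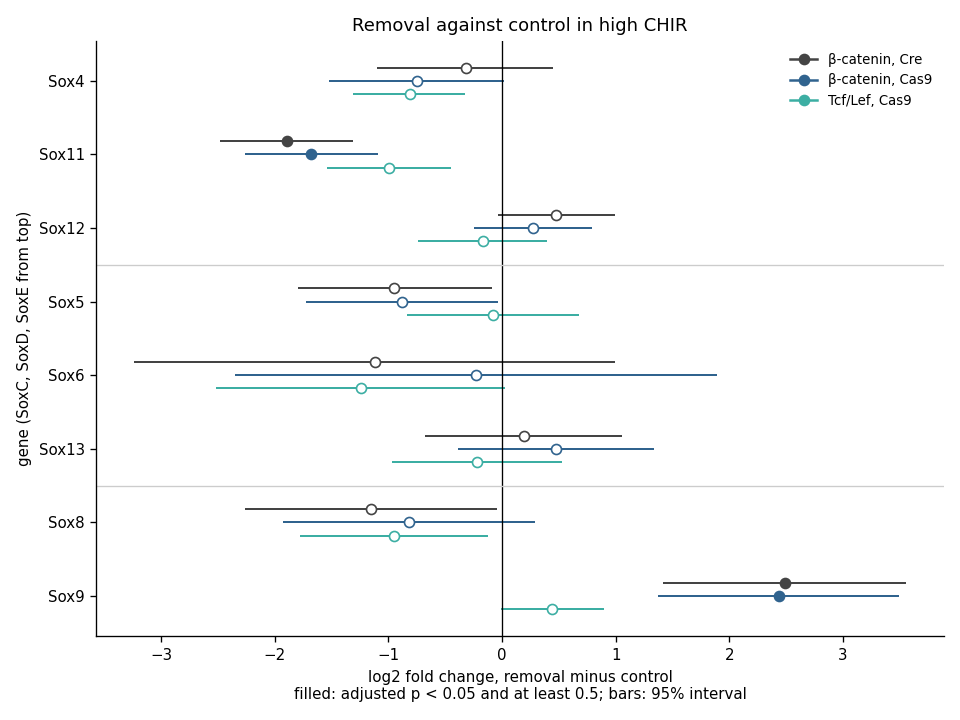
Log2 fold changes (removal minus control in high CHIR, x axis) of the 8 Sox genes (y axis) for Cre, *Ctnnb1* sgRNAs and Tcf/Lef sgRNAs, with 95% intervals and filled points where a gene was called without a block. *Sox11* lies left of zero in all 3, from −1.89 to −0.99, and *Sox9* lies at 2.49 and 2.44 without β-catenin but at 0.44 with Tcf/Lef sgRNAs.

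*Sox8* (ENSMUSG00000024176, chr17:25565892-25570686, minus strand), the other SoxE gene, was low throughout and called in none of the 18 comparisons. It had 9.49 to 30.2 counts in wild-type low CHIR and 14.6 to 62.6 in high CHIR, where the highest value was that of replicate 3. In high CHIR it had 14.1 and 19.4 counts in Cre-pos against 47.9 and 30.1 in Cre-neg cells (−1.15 ± 0.51, adjusted p = 0.218). With Tcf/Lef sgRNAs it had 46.1, 46.7 and 73.3 counts against 88.2, 169.9 and 77.6 (−0.95 ± 0.38, adjusted p = 0.265). The gene 2810468N07Rik overlaps it on the other strand, and whether the counting used strand is not given in the sources used here.

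*Sox6* (ENSMUSG00000051910, chr7:115470872-116038796, minus strand) was the only SoxD gene called by limma over all libraries without a block, between doses in the 3 controls. In the β-catenin and Tcf/Lef tables it passed the filter on low values through its high CHIR libraries, since no low CHIR library exceeded 14.7 counts, so these calls come from the group that let the gene be tested. Cre-neg cells had 0 and 14.7 counts in low CHIR and 107 and 109 in high CHIR (4.78 ± 0.98, adjusted p = 0.00742). The size of this fold change depends on the pseudocount because of the library at 0, and was 2.80 without it (adjusted p = 0.0536). GFP sgRNA gave 1.99 and 3.25 against 24.7 and 80.4 counts in the β-catenin experiment (3.68 ± 0.98, adjusted p = 0.0363, lost in all 4 fits without a library and with a pseudocount of 0.5). In the Tcf/Lef experiment it gave 3.67, 6.91 and 10.4 against 102, 29.3 and 38.3 (2.73 ± 0.58, adjusted p = 0.00745). High and low CHIR did not overlap in any of these controls, whereas in wild type only replicate 3 of high CHIR, with 178 counts, exceeded the range of the other libraries, 5.7 to 30.1.

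Without β-catenin *Sox6* had 48.5 and 49.8 counts in Cre-pos high CHIR and 23.9 and 59.9 with *Ctnnb1* sgRNAs, above their own low CHIR libraries. The differences from the controls in high CHIR were −1.12 (95% interval −3.23 to 0.99) and −0.23 (−2.34 to 1.88), so neither direction nor size was resolved. Tcf/Lef sgRNAs gave 21.7, 16.6 and 22.2 counts, all below the GFP sgRNA libraries (−1.24 ± 0.58, adjusted p = 0.36). *Sox6os* and *Gm45025* lie on the opposite strand within the gene.

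*Sox5* (ENSMUSG00000041540, chr6:143828425-144781977, minus strand), the SoxD partner of *Sox6* in cartilage, had 63.1, 62.7 and 81.4 counts in wild-type low CHIR and 189, 230.3 and 57 in high CHIR. Replicates 1 and 2 were high and replicate 3 was not, and the fold change was 0.98 (adjusted p = 0.342), or 1.59 (adjusted p = 0.047) without replicate 3. Cre-neg cells had 30 and 33.9 against 79.2 and 84 counts (1.33 ± 0.39, adjusted p = 0.055, but 0.0445 with edgeR and 0.0173 with DESeq2), and Cre-pos cells had 46.4 and 37.6 in high CHIR (−0.95 ± 0.39 against Cre-neg, adjusted p = 0.178). *Sox13* (ENSMUSG00000070643, chr1:133382303-133424377, minus strand), the third SoxD gene, was called in none of the 18 comparisons as fitted, though it was in Cre-neg cells between doses with a replicate block (−1.07, adjusted p = 0.0316). It had 210.2 to 250.3 counts in wild-type low CHIR and 111 to 193 in high CHIR, without overlap (−0.71 ± 0.24, adjusted p = 0.0867, or −0.54 and 0.192 without replicate 3).

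In low CHIR, limma called none of the 8 genes on removal. The share of all genes called was 0.328% for Cre, 0.0536% for *Ctnnb1* sgRNAs and 0.0063% for Tcf/Lef sgRNAs. No share of all genes at an unadjusted p under 0.05 was computed, so Sox counts at that threshold have no background. In the same order, the count of Sox genes with an unadjusted p under 0.05 was 1, 0 and 1. These were *Sox5* with Cre (0.96, 95% interval 0.12 to 1.80, adjusted p = 0.398) and *Sox12* with Tcf/Lef sgRNAs (−0.65, −1.28 to −0.02, adjusted p = 0.904). With 2 libraries per group a change of this size can be missed. edgeR and DESeq2 also called 0 with Cre and with Tcf/Lef sgRNAs, and were not run for *Ctnnb1* sgRNAs.

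Between doses, no Sox gene was called in Cre-pos cells (0.292% of all genes) or with *Ctnnb1* sgRNAs (0.763%). Shares of all genes in this paragraph are at the adjusted threshold, and none was computed for the unadjusted one. At an unadjusted p under 0.05 there were 2 in Cre-pos cells, *Sox11* (0.60, adjusted p = 1.0) and *Sox6* (2.40, adjusted p = 1.0), and 1 with *Ctnnb1* sgRNAs, *Sox11* (0.64, adjusted p = 0.468). edgeR and DESeq2 called 0 with *Ctnnb1* sgRNAs and were not run for Cre-pos cells. In high CHIR Tcf/Lef sgRNAs also gave 0 calls by limma without a block, with 2.54% of all genes called. There were 4 Sox genes at an unadjusted p under 0.05 (*Sox4*, *Sox8*, *Sox9* and *Sox11*). With the replicate number as a block limma called 2, *Sox11* (adjusted p = 0.000708) and *Sox4* (0.0121), with no share of all genes computed. The count tests were not run there.

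Whether removal changed the response to dose was tested as an interaction, and no Sox gene was called without a block. With the replicate number as a block 3 were called for Cre, *Sox11* (adjusted p = 0.00913), *Sox5* (0.0415) and *Sox9* (0.0276). The shares of all genes below are of calls without a block, and none was computed with the block or for an unadjusted p under 0.05. For Cre, where 0.995% of all genes were called, *Sox11* had −1.67 ± 0.38 (adjusted p = 0.0612) and *Sox9* 2.12 (adjusted p = 0.272), among 4 genes at an unadjusted p under 0.05. For *Ctnnb1* sgRNAs (0.518% of all genes) the values were −1.20 (adjusted p = 0.385) and 1.71 (adjusted p = 0.633), with 2 genes at an unadjusted p under 0.05. For Tcf/Lef sgRNAs (0.126%) they were −0.56 and 0.59, both with an adjusted p of 1.0, with 0 genes at an unadjusted p under 0.05. The count tests were not run for the interactions.

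By group, the median log2 fold change from low to high CHIR in Cre-neg cells was −0.04 for SoxC, 1.33 for SoxD and −0.97 for SoxE, against −0.002 for all genes. In the Tcf/Lef controls it was 0.36, 0.82 and −1.19, against 0.004. Within SoxC, *Sox11* rose while *Sox12* fell in both controls. Within SoxD, *Sox6* rose while *Sox13*, which was not called, had −1.07 and −0.77. Within SoxE, *Sox9* fell while *Sox8*, which was not called, had 0.92 and −0.05. In the GFP sgRNA control of the β-catenin experiment the SoxC, SoxD and SoxE medians were 0.13, 0.94 and −1.13, against −0.005. In wild type they were −0.20, 0.98 and −0.76, against 0.009.

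Cartilage genes, which SOX9 activates with SOX5 and SOX6, were a list of 12, of which 8, 6 and 7 passed the filter in the wild-type, β-catenin and Tcf/Lef tables. The list was chosen with earlier results of these data known. Between low and high CHIR in wild type 4 fell and 0 rose, where 10.4% of all genes were called. The list median was −1.45 against 0.009 for all genes. Without replicate 3 of high CHIR 3 fell, *Matn1* no longer being called (adjusted p = 0.051), and the median was −1.48. No share of all genes was computed for that fit. In Cre-neg cells 3 fell and 1 rose, in the GFP sgRNA control of the β-catenin experiment 2 fell and 1 rose, and in that of the Tcf/Lef experiment 3 fell and 1 rose. In the same order 8.05%, 7.51% and 14.9% of all genes were called in these controls. The gene that rose in each was *Cnmd*, which encodes chondromodulin.

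*Col2a1*, the main cartilage collagen, had 3047.2, 2110.6 and 2062.4 counts in wild-type low CHIR and 290.2, 276.4 and 430.0 in high CHIR (−2.86 ± 0.26, adjusted p = 0.000124). In high CHIR it had 2846.3 and 3238.4 counts in Cre-pos against 513.6 and 429.5 in Cre-neg cells (2.69 ± 0.28, adjusted p = 3.96e-05). *Col9a1* had 474.4, 548.8 and 497.0 counts in wild-type low CHIR and 1.12, 0.0 and 39.3 in high CHIR. The wild-type doses did not overlap for either gene. With Cre 4 of the 6 tested genes were higher and 1 was lower than in Cre-neg cells in high CHIR, and with *Ctnnb1* sgRNAs 3 were higher and 1 lower. The share of all genes called was 8.65% with Cre and 5.09% with *Ctnnb1* sgRNAs. *Col2a1* was also higher with Cre in low CHIR (1.82 ± 0.28, adjusted p = 0.0108), where *Sox9* was not called. With Tcf/Lef sgRNAs in high CHIR *Matn1* and *Cnmd* were higher, and *Col2a1* had 147.8, 128.8 and 194.8 counts against 464.0, 256.9 and 140.3.

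**Figure D5:**
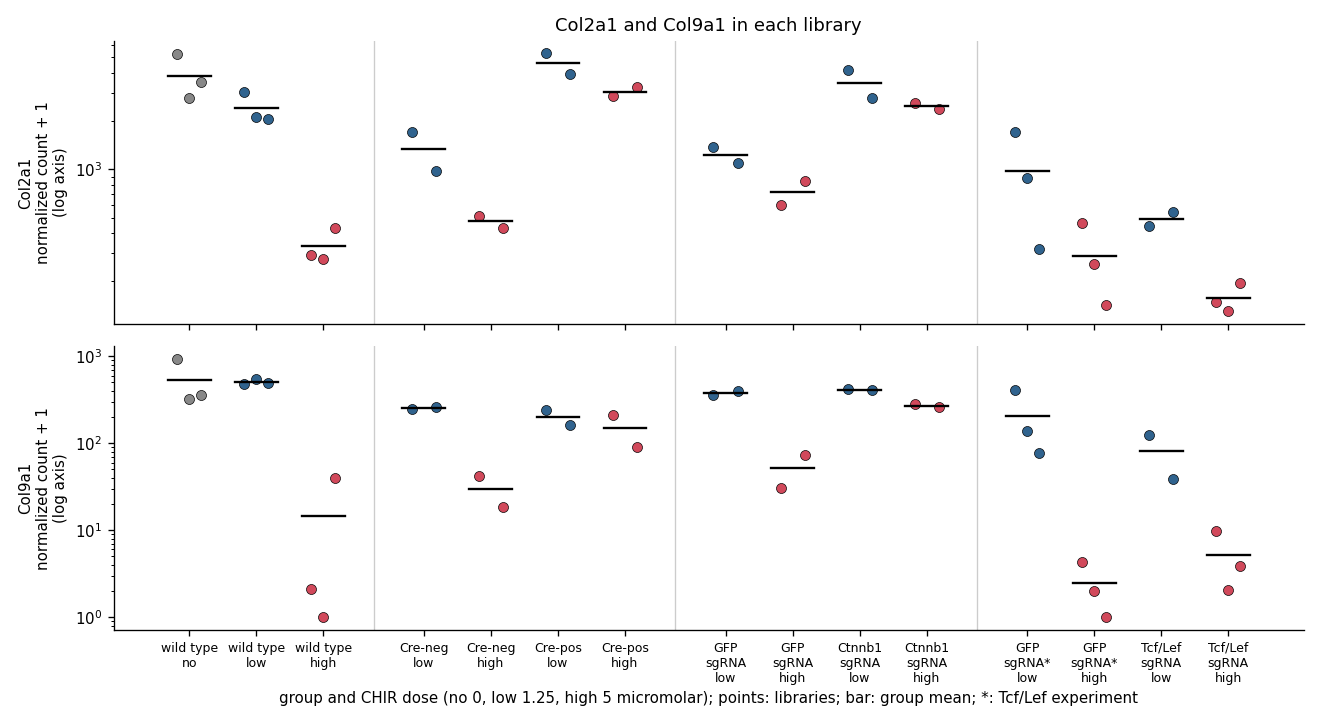
Normalized counts of *Col2a1* and *Col9a1* in every library on log axes after adding 1, by group and CHIR dose, with bars at group means. Wild-type *Col2a1* is 2062.4 to 3047.2 in low CHIR and 276.4 to 430.0 in high CHIR, and the Cre-pos high CHIR libraries lie above the Cre-neg ones.

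Of 4 genes fixed as SoxC targets, *Tubb3*, a neuronal tubulin, rose with high CHIR in wild type (4.66 ± 0.46, adjusted p = 0.000176, or 4.64 without replicate 3) and in the Tcf/Lef controls (2.40, adjusted p = 0.0163), and *Dcx*, a microtubule-binding protein, rose in the latter (2.73, adjusted p = 0.00449). None of the 3 tested in the β-catenin table was called in Cre-neg cells or with GFP sgRNA. Among the HMG-box relatives, *Lef1* rose and *Tcf7l1* fell from low to high CHIR in wild type and in all 3 controls.

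Markers of other cells moved with some of these results. Ureteric markers, 8 in the list with *Wnt9b* and *Aqp2* not listed in the wild-type table, summed to 746.1 to 1016.9 counts in wild-type low CHIR and 2632.0 to 6525.3 in high CHIR. These markers were unequal. The highest wild-type values were 4283.4 counts for *Gata3*, 1543.9 for *Hoxb7* and 916.9 for *Krt19*. They were only 7.32 for *Ret*, 49.5 for *Wnt11* and 54.9 for *Calb1*. Stromal markers summed to 402.9 to 7822.4 counts across the Tcf/Lef low CHIR controls, in which *Col2a1* ranged from 319.0 to 1702.4, with replicate 1 highest and replicate 3 lowest for both. Endothelial markers did not move together in wild type, where *Tek* had 0.0 to 2.40 counts in low and 13.1 to 768.6 in high CHIR, while *Cldn5* had 10.8 to 31.3 in low CHIR and was at 0 in all 3 high CHIR libraries. Of the glial markers, *Sox10* and *Foxd3* were not listed in the wild-type or β-catenin tables. The part of these cells in the Sox results was not tested, and in bulk RNA fewer cells of a type and less RNA per cell cannot be told apart.

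Promoter windows (250 bases before to 50 after a RefSeq start, GRCm38.p6) matched 7 of the 8 genes, all but *Sox9*. They were searched on both strands for short words of each factor. The Tcf/Lef words were CTTTGAT as the first searched, CTTTGAA as the second searched, CTTTGTT as the third searched and CTTTGTA as the fourth. At least one of them is in 16.9% of 32851 windows. The Sox words were AACAAT in its shorter form and AACAAAG in its longer form, with 15.7% of windows holding one. The longer Sox word is the reverse complement of the third Tcf/Lef word, so those matches are shared. Of the 7 genes only *Sox6* held a Tcf/Lef word, in 5 of its 6 windows, and it held a Sox word in 4. Each other matched gene had 1 window, so *Sox6* had more chances of a match. The *Sox5* window (chr6:143947057-143947356) lies inside the gene, away from its annotated 5′ end at 144781977. All *Sox6* windows but that of start site 1 also lie inside their gene, away from its annotated 5′ end at 116038796. The *Sox11* window and the *Sox6* window with start site 3 are shown because the genes differ in these words. Of the 6 *Sox6* windows that of start site 3 holds the most Tcf/Lef words, 3. Both rose with the dose in all 3 controls, *Sox6* with the limit of the filter given above. Tcf/Lef words are in capitals.
Sox11, chr12:27342669-27342968, minus strand: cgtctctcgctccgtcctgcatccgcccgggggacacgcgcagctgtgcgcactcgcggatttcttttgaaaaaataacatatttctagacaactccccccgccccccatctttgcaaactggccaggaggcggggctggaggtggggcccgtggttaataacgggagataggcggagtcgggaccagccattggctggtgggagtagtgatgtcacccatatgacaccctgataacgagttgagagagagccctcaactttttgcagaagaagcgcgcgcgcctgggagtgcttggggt
Sox6, chr7:115995037-115995336, minus strand: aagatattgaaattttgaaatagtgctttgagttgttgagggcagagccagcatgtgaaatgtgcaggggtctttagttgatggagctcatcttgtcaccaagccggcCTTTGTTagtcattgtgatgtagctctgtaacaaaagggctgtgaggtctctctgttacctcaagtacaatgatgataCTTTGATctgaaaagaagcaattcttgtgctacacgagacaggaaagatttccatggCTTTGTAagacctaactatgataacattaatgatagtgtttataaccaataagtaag
Gene counts do not show which *Sox6* start site was used.

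Across the 36 libraries, with each table centred on its own mean, the genes whose log2 counts tracked a Sox gene most closely of 14952 were *Id4* for *Sox11* (Pearson r = 0.941), *Cacnb3* for *Sox9* (0.914), *Itgb5* for *Sox12* (0.904), *Hnrnpl* for *Sox4* (0.894), *Mast3* for *Sox13* (0.835), *Wnt4* for *Sox6* (0.801), *Gpr20* for *Sox5* (0.764) and *Tcf4* for *Sox8* (0.658). Libraries of one table share doses and normalization, so these are descriptions.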

How the data were processed

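Normalized counts of 36 mouse NPC libraries were analysed. The authors deposited them as signal values, which are reads divided by 1 size factor per library (DESeq2 median of ratios), after STAR alignment to a combined GRCm38 and GRCh38 index and featureCounts. Each of the 3 tables was normalized apart. Log2(normalized count + 1) was tested with limma 3.58.1 in R 4.3.3 (trend, all libraries of a table, genes with a mean of at least 10, Benjamini-Hochberg over 17411, 16780 or 15878 genes). Whole reads were recovered within 0.02 of a read for all but 3 libraries, and edgeR 4.0.16 and DESeq2 1.42.0 were run on them as alternatives. Depth was 13089780 to 76071568 reads per library. On simulated data for wild-type high against low CHIR, 95% of genes changed by 2 on the log2 scale were recovered, and 47% of those changed by 1. The rates were 94% and 20% for Cre in high CHIR (2 libraries per group) and 93% and 36% for Tcf/Lef sgRNAs in high CHIR. The simulation gave all genes the same dispersion (spread beyond that of counting) and no replicate effect. Genes that vary more between these libraries can be recovered less often. Replicate numbers paired the libraries of the Tcf/Lef experiment, where deviations of same-numbered libraries correlated at 0.249 to 0.369 between GFP and Tcf/Lef sgRNAs in high CHIR. Such correlations were 0.334 to 0.518 in the Cre experiment and 0.142 to 0.491 in the *Ctnnb1* sgRNA experiment. The 50 per-library columns in 8 tables of the authors' comparisons, which also hold fold changes and p-values, were not used. The 8 genes were named in every comparison, other listed genes where called, and the 3 genes most alike each were computed. The members and lists were chosen with earlier results of these data known. Exon lengths come from GENCODE vM21.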

Additional observations from a re-analysis of the deposited data

How the results depend on the processing

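Leaving out single libraries moved the count of Sox genes called to 0 to 4 for wild-type high against low CHIR, 2 to 5 for high against no, 0 to 1 for no against low, 2 to 4 for Cre-neg and 1 to 2 for GFP sgRNA (β-catenin) between doses, 1 to 2 for Cre and 0 to 2 for *Ctnnb1* sgRNAs in high CHIR, 1 to 2 for Tcf/Lef sgRNAs between doses and 0 to 1 for the Cre interaction. Where this left 1 library in a group, it was assumed to vary like the other groups. With only the libraries compared the count was 0 for wild-type high against low, 2 for Cre-neg, 1 for Tcf/Lef sgRNAs between doses and 1 for them in high CHIR. The last was 1 with no filter on low values. With the replicate block the count was 2 for Tcf/Lef sgRNAs in high CHIR and 2 for wild-type high against low. For the Cre interaction it was 3 (*Sox11* 0.00913, *Sox5* 0.0415 and *Sox9* 0.0276 as adjusted p). Deviations of same-numbered libraries correlated at 0.334 to 0.518 in the Cre experiment. The blocked count was 6 for Cre-neg between doses, adding *Sox5* (adjusted p = 0.0137) and *Sox13* (0.0316). Without the block it was 5 there with edgeR and with DESeq2, adding *Sox5*. At a threshold of 1 the wild-type counts were 0 for high against low and 0 for no against low. For wild-type high against low DESeq2 called 2, and edgeR called 1, *Sox11* (adjusted p = 0.0439) in place of *Sox12* (0.0591). With only the libraries compared, *Sox4* with *Ctnnb1* sgRNAs in high CHIR was called (0.0226). The causes were not tested, and no share of all genes called was computed for these alternative fits. TMM rescaling left every count as it was. The count tests were not run for comparisons that hold one of the 3 libraries whose reads were not recovered.

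No called value changed sign. Of the uncalled ones, *Sox4* in Cre-neg high against low became 0.02 with edgeR and 0.01 with DESeq2, *Sox4* with Tcf/Lef sgRNAs in low CHIR became 0.03 with the replicate block, and *Sox6* there became 0.07 with edgeR and 0.11 with DESeq2. Leaving out single libraries let 43 uncalled log2 fold changes cross zero, with these ranges. For wild type, high against low, they were −0.17 to 1.95 for *Sox6* and −0.14 to 0.87 for *Sox8*. For wild type, no against low, they were −0.89 to 0.06 for *Sox5*, −0.61 to 0.53 for *Sox6* and −0.17 to 0.62 for *Sox8*. For wild type, high against no, they were −0.20 to 1.92 for *Sox6* and −0.48 to 0.54 for *Sox8*. For Cre-neg, high against low, they were −0.41 to 0.32 for *Sox4*. For GFP sgRNA (β-catenin), high against low, they were −0.58 to 0.10 for *Sox13* and −0.36 to 0.62 for *Sox4*. For GFP sgRNA (Tcf/Lef), high against low, they were −0.40 to 0.16 for *Sox8*. For Cre-pos, high against low, they were −0.75 to 0.38 for *Sox13*, −0.45 to 0.31 for *Sox4* and −1.54 to 0.09 for *Sox9*. For *Ctnnb1* sgRNAs, high against low, they were −0.23 to 0.17 for *Sox12*, −0.08 to 0.57 for *Sox13*, −0.55 to 0.15 for *Sox4*, −0.01 to 0.69 for *Sox5* and −0.84 to 0.43 for *Sox8*. For Tcf/Lef sgRNAs, high against low, they were −0.78 to 0.44 for *Sox8*. For Cre in low CHIR, they were −0.65 to 0.20 for *Sox11*, −0.68 to 0.08 for *Sox4*, −0.72 to 3.25 for *Sox6* and −0.24 to 0.98 for *Sox9*. For Cre in high CHIR, they were −0.07 to 0.45 for *Sox13* and −0.69 to 0.04 for *Sox4*. For *Ctnnb1* sgRNAs in low CHIR, they were −0.38 to 0.14 for *Sox12*, −0.34 to 0.31 for *Sox13*, −0.91 to 0.07 for *Sox4* and −0.84 to 0.28 for *Sox5*. For *Ctnnb1* sgRNAs in high CHIR, they were −1.06 to 0.60 for *Sox6*. For Tcf/Lef sgRNAs in low CHIR, they were −0.31 to 0.09 for *Sox4*, −0.14 to 0.72 for *Sox5*, −0.93 to 0.88 for *Sox6* and −0.35 to 0.06 for *Sox9*. For Tcf/Lef sgRNAs in high CHIR, they were −0.40 to 0.14 for *Sox5*. For the Cre interaction, they were −0.40 to 0.36 for *Sox4* and −0.82 to 0.00 for *Sox8*. For the *Ctnnb1* sgRNA interaction, they were −0.82 to 0.16 for *Sox4* and −1.10 to 0.17 for *Sox8*. For the Tcf/Lef interaction, they were −0.12 to 0.49 for *Sox13*, −0.80 to 0.06 for *Sox5* and −0.73 to 0.50 for *Sox8*.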
